A study of Mus musculus with 10 samples.

Results

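The cells described here carry Cd209a, a C-type lectin gene of type 2 conventional dendritic cells, in lung tumours of mice given 2 inhibitors. They were selected on Cd209a itself: a cell was taken if it had 2 or more UMIs (unique molecular identifiers, each counting 1 captured transcript) of Cd209a and no UMI of Xcr1, Clec9a, Cd3e or Cd79a. Of 44986 deposited cells, 442 met this rule. KP cells, a mouse lung cancer line, were injected intravenously into syngeneic mice to form tumours in the lung, and the mice were treated for 11 days with vehicle, SHP099, SX682 or both drugs. SHP099 inhibits the phosphatase SHP2, encoded by Ptpn11, and SX682 inhibits the chemokine receptors CXCR1 and CXCR2. Tumour nodules of 3 mice per treatment were dissociated, enriched for live cells with magnetic beads, hashtagged by mouse and captured as 1 pool per treatment, so a pool and its treatment cannot be told apart. The 12 mice are the replicates throughout. The labels give no age, sex, strain or dose for these mice.

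Conventional dendritic cells sample antigen in tissue and present it to T cells. The type 1 subset carries Xcr1 and Clec9a and is known for presenting antigen to CD8+ T cells, whereas the type 2 subset depends on the transcription factor Irf4, presents antigen on MHC class II to CD4+ T cells and carries lectins such as Clec10a and Mgl2. In inflamed tissue, monocytes can take up some of the same surface markers, and dendritic cells that mature lose part of their subset markers and gain Ccr7 and Fscn1. The other cell sets used for comparison were therefore 713 Xcr1 or Clec9a cells, 477 Ccr7 and Fscn1 cells and 724 Ly6c2 and Csf1r cells (monocytes carry both genes), which share no cells with the Cd209a cells or with each other.

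The 442 cells had a median of 5 Cd209a UMIs and at most 41. Just below the limit stood 215 cells with 1 UMI, and just inside it 100 cells with 2 UMIs. The authors' cluster 19 held 52.6% of the former, 58.0% of the latter and 85.2% of the 81 cells with 10 or more UMIs. A further 206 cells had 2 or more Cd209a UMIs but were left out by the rule, 147 of them for Cd3e, 56 for Cd79a, 45 for Clec9a and 9 for Xcr1. Of the 206, 82 lay in cluster 19. The Cd209a cells held a median of 5945.5 UMIs, from 854 to 33690, against a median of 2025 in all deposited cells. Cells that should lack Cd209a seldom held it: 2 or more UMIs were found in 1 of 6570 cells of the authors' T cell table (0.0152%, median 1526 UMIs per cell), in 2 of 9540 of their neutrophil table (0.0210%, median 1085) and in 24 of 4093 cells of clusters 21 and 23, which are rich in keratin genes (0.586%, median 10113). In cluster 19 the share was 38.0% of 1035 cells (median 6085). These shares include cells that the rule left out. Across pools, 1009 barcode sequences recurred and 24 Cd209a cells carried one of them, but no barcode belonged to Cd209a cells of 2 pools.

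Most Cd209a cells sat in 1 of the authors' 33 clusters. Cluster 19 held 311 of them (70.4%), and they made up 30.0% of that cluster (exact binomial 95% interval 27.3 to 32.9%). The next were cluster 15 with 24 cells, cluster 14 with 22, cluster 12 with 20, clusters 13 and 23 with 12 each, cluster 4 with 10, cluster 16 with 8 and cluster 21 with 6. Clusters 25 and 26 held 4 cells each, and the last 9 cells were spread over 7 clusters.

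The cells outside cluster 19 carried genes of other cell types beside dendritic genes, to differing degrees. The 54 in clusters 14, 15 and 16 had the complement gene C1qa, a macrophage gene, at 1283 CPM (UMI counts scaled to a common total of all UMIs, cells of a set summed), against 29.997 in those of cluster 19. These 3 clusters were not alike. Summed over the macrophage list, their Cd209a cells had 3860, 14014 and 16251 CPM in that order, against 516 in cluster 19. Summed over the MHC class II list, they had 64380, 50141 and 37581 CPM, against 70688 in cluster 19. The 32 in clusters 12 and 13 had the monocyte gene Ly6c2 at 1298 and the 10 in cluster 4 had Siglech, a lectin of plasmacytoid dendritic cells, at 1631 CPM. The corresponding values in cluster 19 were 34 and 1.5. The 18 in clusters 21 and 23, here called tumour clusters for their keratin genes, had the keratin gene Krt8 at 3414 CPM, against 14.5 in cluster 19, and Cd74 at 5567 against 34417. Their median UMI counts were 14344.5 in cluster 21 and 16379.5 in cluster 23, above the 5843 of the cells in cluster 19. No doublet caller was run, so the share of captures that hold more than 1 cell was not tested.

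These other cells were not spread evenly over the treatments. Cluster 19 held 115 of 172 Cd209a cells of vehicle mice (66.9%), 30 of 40 after SHP099 (75.0%), 141 of 189 after SX682 (74.6%) and 25 of 41 after the combination (61.0%). Tumour clusters 21 and 23 held 14 cells in vehicle mice (8.14%), 1 after SHP099 (2.50%), 1 after SX682 (0.529%) and 2 after the combination (4.88%). Gene results between treatments are therefore set beside the same contrast in all cells of cluster 19, which were taken whatever their Cd209a count and include the 311 Cd209a cells.

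**Figure D1:**
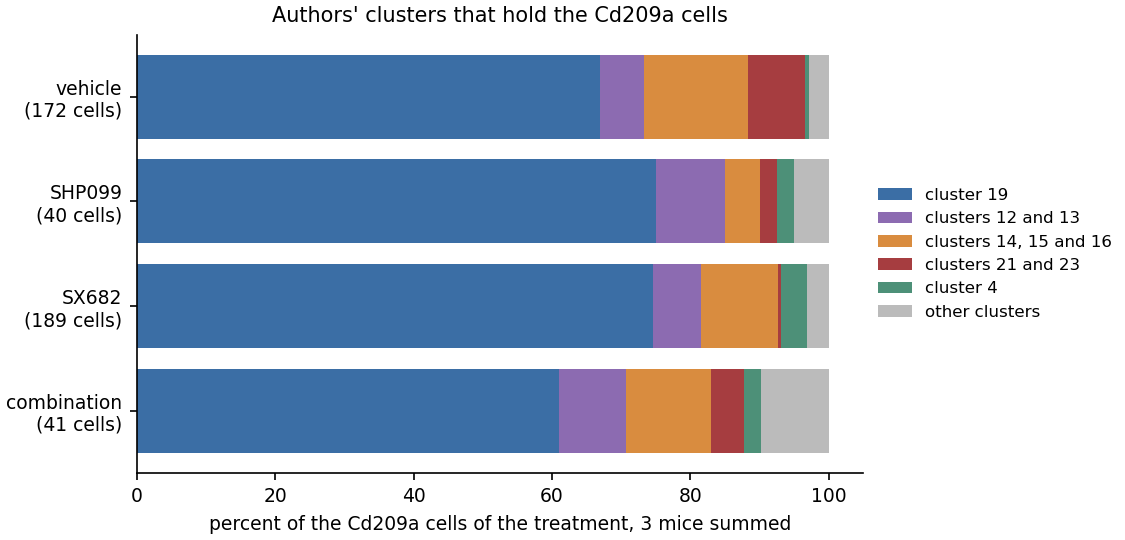
Stacked bars give the percent of each treatment's Cd209a cells (3 mice summed) that fell in the authors' cluster 19 and in 5 other groups of clusters. Cluster 19 holds 61.0 to 75.0% in each treatment, and tumour clusters 21 and 23 hold 8.14% in vehicle mice against 0.529% after SX682.

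The given markers of the type went with the label only in part. H2-Ab1, the beta chain of the MHC class II molecule I-A, was at 6308 CPM in the Cd209a cells, near the 6617 of the Xcr1 or Clec9a cells and above the 1928 of the Ccr7 and Fscn1 cells and the 1055 of the Ly6c2 and Csf1r cells. Flt3, the receptor for the growth factor that sustains conventional dendritic cells, was at 37.1, above the 7.42 of the Ly6c2 and Csf1r cells but below the 106 of the Xcr1 or Clec9a cells and the 84.7 of the Ccr7 and Fscn1 cells. Zbtb46, a transcription factor of conventional dendritic cells, stood in the same order at 18.7, against 1.28, 40.1 and 38.3 CPM.

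Of the type 2 genes that the rule did not use, Clec10a, Mgl2 and Irf4 were highest in the Cd209a cells among the sets compared. Others were higher in another set. Clec10a was at 250 CPM, against 70.1 in the Xcr1 or Clec9a cells, 5.33 in the Ccr7 and Fscn1 cells and 29.2 in the Ly6c2 and Csf1r cells. Mgl2, a related galactose-binding lectin, was at 767, against 81.7, 34.5 and 37.1 in the same order. Irf4 was at 42.3, against 1.96, 23.5 and 7.68, and was not among the type 2 genes called in any comparison of sets. Sirpa and Itgam, which type 2 cells share with monocytes, were at 122 and 110 CPM, above the 16.7 and 14.8 of the Xcr1 or Clec9a cells and below the 217 and 205 of the Ly6c2 and Csf1r cells. Clec4a4, a lectin of type 2 cells in spleen, was nearly absent at 1.94 CPM. Cd1d1, which presents lipid antigen, was at 17.4 CPM, below the 88.4 of the Ccr7 and Fscn1 cells. The summed type 2 list, without Cd209a but with H2-Ab1, was not particular to the cells that met the rule. It was at 10371 CPM in all of them, 12846 in those of cluster 19 and 11604 in the other cells of cluster 19. These other cells are not free of Cd209a. They include 113 with 1 UMI of it and 82 with 2 or more that the rule left out for another gene. H2-Ab1 alone made up 6308 of the 10371 CPM. Summed over the list of lectins and pattern receptors, the Cd209a cells had 2231 CPM, against 503, 338 and 2342 in the other 3 sets in the order above, above the other dendritic sets and near the Ly6c2 and Csf1r cells.

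**Figure D2:**
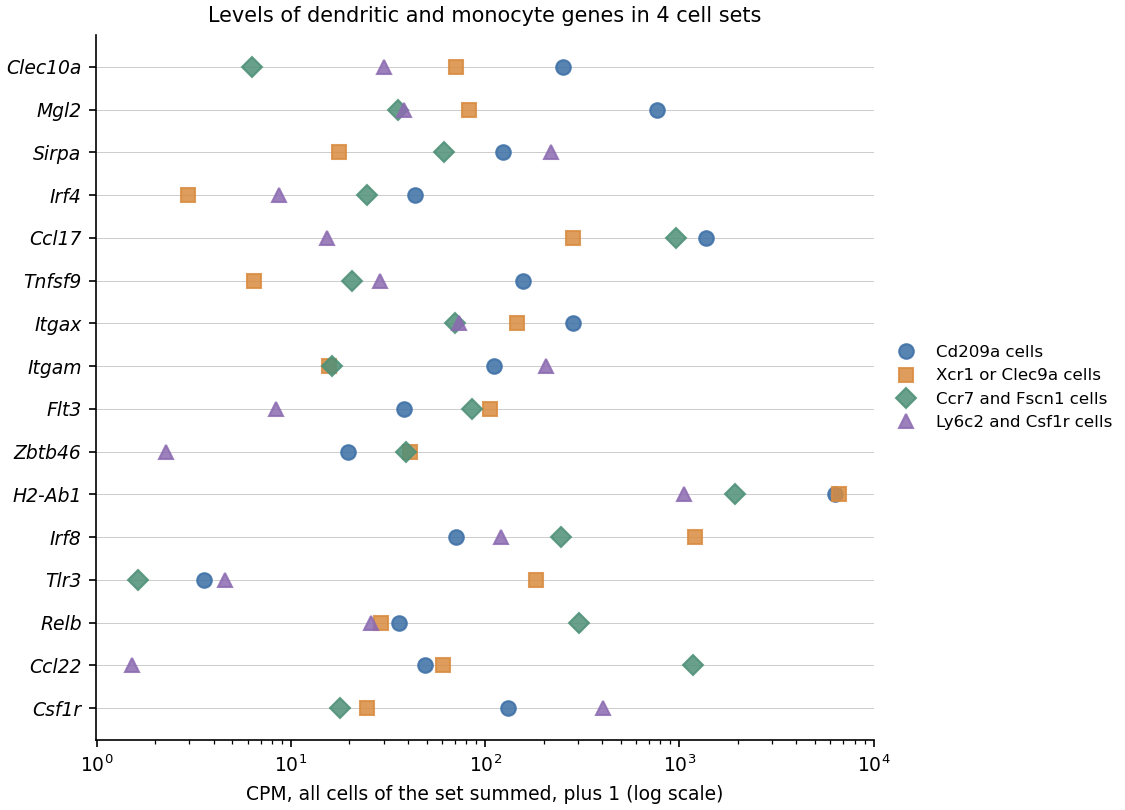
Each symbol gives the level of a gene in CPM plus 1 (log scale, all cells of a set summed) in the Cd209a cells and the 3 comparison sets. Clec10a, Mgl2, Irf4, Ccl17, Tnfsf9 and Itgax are highest in the Cd209a cells, whereas Flt3 (37.1) lies below the 106 of the Xcr1 or Clec9a cells. Irf4 and Ccl17 were not among the type 2 genes called higher against the Ccr7 and Fscn1 cells.

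The Cd209a cells and the Xcr1 or Clec9a cells of the same mice differed in 1327 of 4138 genes tested (32.1%), 593 higher and 734 lower in the Cd209a cells. The test was edgeR's quasi-likelihood test on UMI counts summed per mouse and set, over the 10 mice with at least 10 cells of both sets and with the mouse as a block. The Xcr1 or Clec9a cells were taken without Cd209a, so the direction of type 2 genes largely follows from the selection. Tnfsf9, the ligand of the T cell receptor 4-1BB, was higher by 4.71 ± 0.23 on the log2 scale (SE), and Mgl2 by 3.05 ± 0.18, each in 10 of 10 mice. Inflammatory genes were among those higher: Il1b, which encodes a secreted cytokine, by 3.68 ± 0.34, Ptgs2, the inducible enzyme of prostaglandin synthesis, by 3.70 ± 0.33, and the chemokine gene Ccl3 by 3.55 ± 0.32. Of 18 immediate early genes tested, 15 were higher and 0 lower, with a median log2 difference of 1.47 against -0.05 over all genes tested. Of 17 NF-kB response genes, 13 were higher and 1 lower (median 0.96). The summed NF-kB and chemokine and cytokine lists were at 7834 and 9325 CPM in the Cd209a cells of cluster 19. The other cells of that cluster had 7622 and 8854 CPM. All 9 monocyte genes tested were higher (median 1.80), among them Csf1r, the receptor of a macrophage growth factor, by 2.23 ± 0.19. Over the Cd209a cells of cluster 19 alone the values were 3.83 for Il1b and 2.05 for Csf1r. Of 10 macrophage genes 6 were higher, but C1qb turned from 1.04 ± 0.17 to -1.57 in that subset (adjusted p = 7.83e-06).

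The same comparison placed several antigen-presentation and type 1 genes lower in the Cd209a cells. The sets were chosen for and against Xcr1 and Clec9a, so the direction of type 1 genes largely follows from the selection. All 13 type 1 dendritic genes tested were lower (median -3.87), among them Irf8, the transcription factor that type 1 cells require, at -4.21 ± 0.17 and the double-stranded RNA sensor gene Tlr3 at -6.01 ± 0.30. Flt3 gave -1.69 ± 0.20 and Id2, an inhibitor of E-protein transcription factors, -1.57 ± 0.13, each lower in 10 of 10 mice. Of 12 MHC class I genes, 7 were lower and 0 higher (median -0.37), and of 7 interferon gamma response genes, 6 were lower (median -1.46), with the peptide transporter gene Tap1 at -1.46 ± 0.16. MHC class II genes were mixed, with 2 of 12 higher and 3 lower. H2-DMb2, a chain of the peptide-loading molecule H2-M, was higher by 1.51 ± 0.20. H2-Ab1 gave -0.23 ± 0.08 over all Cd209a cells but 0.05 (adjusted p = 0.672) over those in cluster 19.

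Against the Ccr7 and Fscn1 cells, 1597 of 3012 genes differed (53.0%), 665 higher and 932 lower. The sets were chosen on Ccr7 and Fscn1 or on Cd209a, so the direction of mature and type 2 genes largely follows from the selection. Of 13 type 2 dendritic genes tested, 10 were higher and 2, Flt3 and Cd1d1, lower in the Cd209a cells. Clec10a was higher by 5.28 ± 0.37, the chemokine receptor gene Ccr2 by 4.23 ± 0.33, H2-DMb1 by 3.02 ± 0.19 and H2-Ab1 by 1.53 ± 0.11. Of 12 MHC class II genes, 9 were higher, and the exception that was lower is H2-Eb2 (-6.26 ± 0.26). Of 16 mature dendritic genes tested, 14 were lower and 0 higher, among them the chemokine gene Ccl22 at -4.57 ± 0.29, the NF-kB subunit gene Relb at -3.29 ± 0.17 and the costimulatory receptor gene Cd40 at -2.43 ± 0.22. Of 11 MHC class I genes, 10 were lower. Il12b, which encodes a subunit of the cytokines IL-12 and IL-23, had no UMI in the Cd209a cells and was at 142 CPM in the Ccr7 and Fscn1 cells. Of 12 costimulation and checkpoint genes, 3 were higher and 7 lower.

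Against the Ly6c2 and Csf1r cells, 1051 of 2959 genes differed (35.5%), 460 higher and 591 lower. Here the choice on Ly6c2 and Csf1r or on Cd209a largely sets the direction of monocyte and type 2 genes. MHC class II and the chemokine gene Ccl17, whose product attracts CCR4-bearing T cells, were higher in the Cd209a cells: Ccl17 by 6.64 ± 0.47, H2-Ab1 by 2.40 ± 0.19, and Cd74, the invariant chain of MHC class II, by 2.18 ± 0.18. Of 10 MHC class II genes, 9 were higher and 1 lower (median 2.24), and all 8 pan-dendritic genes tested were higher (median 2.06). Of 11 type 2 dendritic genes, 9 were higher and 2, Sirpa and Itgam, lower. Lectins and pattern receptors were mostly lower, with 2 of 11 higher, Clec10a and Mgl2, and 7 lower (median -1.34), among them Clec4a3 at -2.34 ± 0.18 and Clec4d at -2.46 ± 0.21, each in 10 of 10 mice. Of 11 monocyte genes, 10 were lower and 0 higher (median -1.54). The proteoglycan gene Vcan gave -4.09 ± 0.29 and the lysozyme gene Lyz2 -2.94 ± 0.18. Over the Cd209a cells of cluster 19 alone the values were -7.40 and -4.72. Of 6 type I interferon response genes, 5 were lower (median -1.77).

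The share of Cd209a cells differed between the treatments. In vehicle mice they were 1.34, 1.78 and 0.95% of all cells, from 86, 61 and 25 cells, and after SX682 1.80, 1.72 and 1.75%, from 68, 71 and 50 cells. After SHP099 they were 0.396, 0.681 and 0.175%, from 15, 21 and 4 cells, and after the combination 0.401, 0.369 and 0.136%, from 17, 20 and 4 cells. Every mouse given SHP099, alone or in combination, lay below every mouse given vehicle or SX682. The means were 1.36% ± 0.417 (SD, n = 3) for vehicle, 0.417% ± 0.254 for SHP099, 1.75% ± 0.0385 for SX682 and 0.302% ± 0.144 for the combination. An exact permutation test over every way of placing the 12 mice in 4 groups of 3 gave p = 0.00383 (F statistic on the log odds of the share; adjusted over 6 measures 0.0230).

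**Figure D3:**
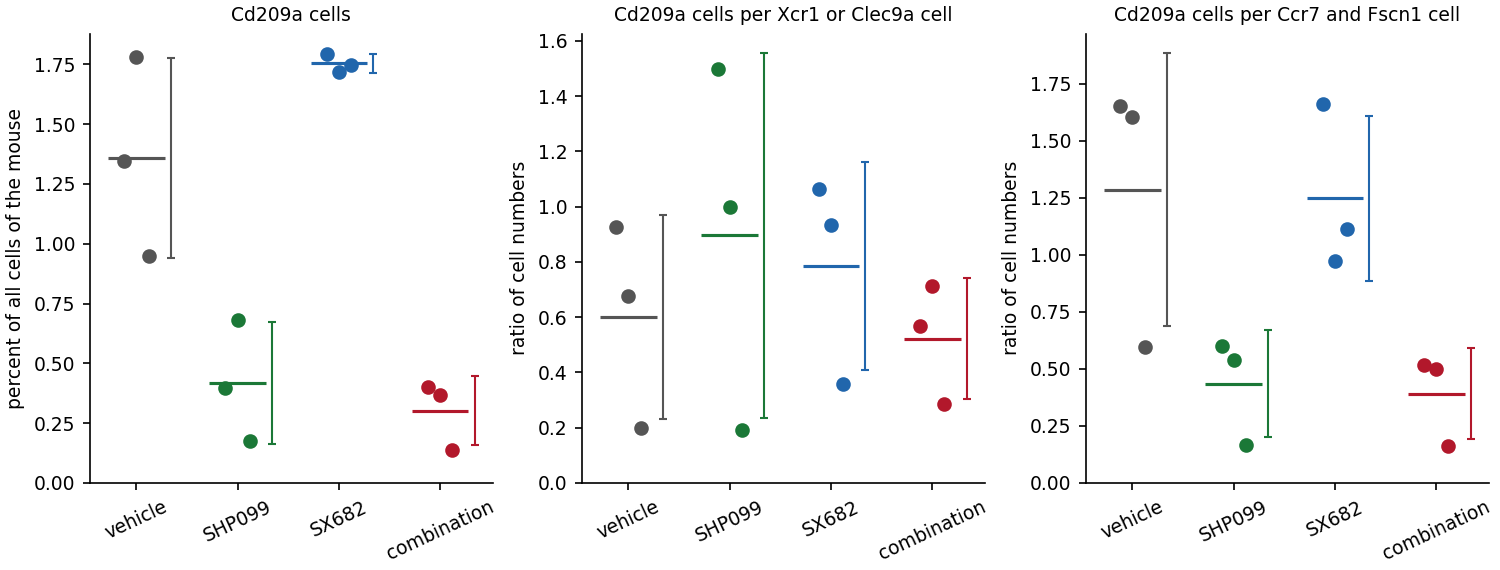
Points are mice, lines are means of 3 mice and bars are ± 1 SD. The left panel gives the Cd209a cells as percent of all cells, where the SHP099 and combination mice (0.136 to 0.681%) lie below the others (0.95 to 1.80%), and the other panels give the ratio to Xcr1 or Clec9a cells and to Ccr7 and Fscn1 cells.

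Between pairs of treatments, edgeR's test on cell numbers over 37 cell groups gave a log2 fold change of the share of -1.68 ± 0.51 for SHP099 against vehicle (adjusted p = 0.0124), where 51.4% of the cell groups passed. For SX682 it gave 0.36 ± 0.47 (adjusted p = 0.703; 2.7% of groups passed). For the combination it gave -2.13 ± 0.51 against vehicle (adjusted p = 0.00526; 24.3% passed), -0.45 ± 0.53 against SHP099 (adjusted p = 0.684; 8.11% passed) and -2.49 ± 0.51 against SX682 (adjusted p = 0.00315; 13.5% passed). Of the 37 groups after SHP099, 12 fell, the Cd209a cells among them, and 7 rose. Without SHP099 mouse 3 the value of the Cd209a cells was -1.34 (adjusted p = 0.0633). All cells of cluster 19 together, which no Cd209a count selects, gave -1.46 for SHP099 (adjusted p = 0.0129), -1.81 for the combination against vehicle (adjusted p = 0.00612) and -2.05 against SX682 (adjusted p = 0.00529).

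Depth over all cells moved with the treatments, and a rule of 2 UMIs depends on depth. The median UMI count of all cells was 2824 to 4838 in vehicle mice, 1440 to 1612 after SHP099, 2501.5 to 2731.5 after SX682 and 1532 to 1632.5 after the combination. In cluster 19, which holds most Cd209a cells, only the combination lay below vehicle. There the medians were 5516 to 7134 in vehicle mice and 5039.5 to 8159 after SHP099. They were 6131.5 to 7323.5 after SX682 and 3922.5 to 4863 after the combination. With each cell thinned to 1000 UMIs and shallower cells left out, the shares were 0.212 to 0.606% in vehicle mice, 0.112 to 0.439% after SHP099, 0.430 to 0.915% after SX682 and 0.0471 to 0.190% after the combination. The number of cells left out per mouse was 277 to 1287 for vehicle, 634 to 1113 for SHP099, 300 to 665 for SX682 and 810 to 1728 for the combination. The exact permutation test over 4 treatments then gave p = 0.0346 and the combination stayed below SX682 (-2.23, adjusted p = 0.0363). The values against vehicle no longer passed: -0.85 for SHP099 (adjusted p = 0.278) and -1.73 for the combination (adjusted p = 0.0545).

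Of the other dendritic sets, the share of Xcr1 or Clec9a cells fell by 2.26 ± 0.60 after SHP099 (log2, edgeR, adjusted p = 0.00586), and that of Ccr7 and Fscn1 cells gave -0.23 ± 0.42 (adjusted p = 0.678). There were 0.600 ± 0.369 Cd209a cells per Xcr1 or Clec9a cell in vehicle mice (SD, n = 3), 0.897 ± 0.661 after SHP099, 0.785 ± 0.376 after SX682 and 0.522 ± 0.218 after the combination (exact permutation p = 0.884, adjusted over 6 measures 0.884). In each treatment mouse 3 had the lowest ratio, at 0.198, 0.190, 0.357 and 0.286 in the same order. The test took no account of the mouse number, so its p does not show that the ratios were equal. Per Ccr7 and Fscn1 cell, the values were 1.65, 1.61 and 0.595 in vehicle mice, 0.6, 0.538 and 0.167 after SHP099, 1.66, 0.973 and 1.11 after SX682, and 0.515, 0.5 and 0.16 after the combination. The SHP099 and combination ratios overlapped only the lowest vehicle mouse, and the exact permutation p of 0.0509 (adjusted 0.110) missed the threshold. As a share of the 3 dendritic sets together, the test gave p = 0.524 (exact permutation), and none of the contrasts passed. Mouse 3 again had the lowest value in each treatment.

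Within cluster 19, the percent of cells that were Cd209a cells by the rule was not shown to differ between treatments, at 28.03 ± 5.58% in vehicle mice, 25.8 ± 10.6% after SHP099, 34.5 ± 4.09% after SX682 and 17.4 ± 10.9% after the combination (exact permutation p = 0.163, adjusted 0.196). Cd209a itself was at 603, 402 and 224 CPM in cluster 19 of vehicle mice, 615, 523 and 440 after SX682, and 261, 303 and 84.4 after the combination, with 359, 367 and 212 after SHP099. The combination gave -1.15 ± 0.31 against SX682, which missed the threshold (edgeR, adjusted p = 0.0529), and -0.82 ± 0.32 against vehicle (adjusted p = 0.174).

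Gene levels were compared on UMI counts summed over the Cd209a cells of each mouse with at least 10 of them. SHP099 mouse 3 and combination mouse 3, with 4 cells each, were left out, which leaves 3 vehicle, 2 SHP099, 3 SX682 and 2 combination mice in 1 fit. The median log2 change of all genes was not 0 under the main scaling: -0.22 for SHP099, 0.05 for SX682 and -0.24 for the combination against vehicle, and -0.27 for the combination against SX682. Under DESeq2's size factors these were -0.04, -0.01, -0.02 and 0.01, so lists are given beside the all-gene median. Contrasts that use the same vehicle, SX682 or combination mice are not independent of each other. Of the drug targets, Ptpn11 was at 28.9 to 63.8 CPM per mouse, with no contrast passing, and Cxcr2 and Cxcr1 had UMIs in 3.39% and 0.679% of the Cd209a cells.

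After SHP099, 126 of 4913 genes passed against vehicle (2.56%), 21 higher and 105 lower. With DESeq2's size factors in the same test the split was 39 higher and 46 lower. Several glycolytic enzyme genes fell, a few signalling genes rose, and genes of macrophages and tumour cells were lower. Of the 126, 68 passed in the same direction in all cells of cluster 19, 13 of them higher, where 436 of 5570 genes passed (7.83%; 117 higher, 319 lower). Leaving out vehicle mouse 2 or 3 left 41 or 63 genes, and leaving out SHP099 mouse 1 or 2 left 21 or 12, with the remaining SHP099 mouse assumed to vary like the other groups.

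The glycolytic genes are those that turn glucose into pyruvate and respond to low oxygen. Tpi1, the triose phosphate isomerase, was at 336, 396 and 288 CPM in vehicle mice and 106 and 65.1 after SHP099, with no overlap. It fell by 2.03 ± 0.29 (log2, adjusted p = 0.00317), and by 1.56 in all cells of cluster 19 (adjusted p = 0.000873). Aldoa, which encodes aldolase A, was at 576, 626 and 536 in vehicle mice and 174 and 203 after SHP099, and fell by 1.61 ± 0.21 (adjusted p = 0.00199). In cluster 19 the value for Aldoa was -1.20 (adjusted p = 0.00187). Pgk1 and Pgam1, 2 further enzymes of the pathway, fell by 1.89 ± 0.31 and 1.68 ± 0.29. Of 18 glycolysis and hypoxia genes tested, 6 fell and 0 rose (median -0.81 against -0.22 for all genes), and in all cells of cluster 19 9 fell and 1 rose (median -0.62 against -0.06). Over the Cd209a cells of cluster 19 alone, 1 of 13 fell and 1 rose (median -0.40 against -0.22). The summed list was at 4569 CPM in the Cd209a cells of cluster 19 and at 10122, 10056 and 10359 in those of clusters 16, 21 and 23, and the part of these cells in the result was not tested.

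Genes that rose after SHP099 include signalling and transcription genes. Prkcd, which encodes protein kinase C delta, was at 161, 157 and 144 CPM in vehicle mice and 426 and 571 after SHP099. It rose by 1.69 ± 0.24 (adjusted p = 0.00314) and by 1.45 in cluster 19 (adjusted p = 3.11e-05), where the 3 SHP099 mice had 439, 565 and 471 against 168 to 202. Nfkb1, the p50 subunit of NF-kB, rose by 1.40 ± 0.24 (adjusted p = 0.0102) and by 0.68 in cluster 19 (adjusted p = 0.0112). Irf2bp2, a transcriptional co-repressor gene, rose by 1.31 ± 0.27 (0.021) and by 1.01 in cluster 19 (0.00382). Csf2rb, the shared receptor chain for GM-CSF, rose by 0.98 ± 0.24 (0.0441) and by 0.87 in cluster 19 (0.00362).

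Clec10a also rose in the Cd209a cells, from 242, 151 and 212 to 484 and 463 CPM (1.23 ± 0.23, adjusted p = 0.0141). In all cells of cluster 19, with 173 to 278 in vehicle mice and 191 to 315 after SHP099, the value was 0.23 (adjusted p = 0.624). The monocyte genes Ms4a4c and Ly6c2 behaved likewise, with 1.70 ± 0.25 (0.00365) and 1.66 ± 0.38 (0.037) in the Cd209a cells and 0.65 (0.171) and -0.84 (0.32) in cluster 19. The summed monocyte list was at 1762 to 2317 CPM in the Cd209a cells of vehicle mice and 2780 to 3658 after SHP099, and its part in these values was not tested.

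MHC class II genes did not pass in the Cd209a cells after SHP099, with 0 of 12 called (median -0.20, near the -0.22 of all genes), whereas 5 of 12 fell with the Cd209a cells of cluster 19 alone (median -0.55). Cd74 was at 28696, 25897 and 25519 CPM in vehicle mice and 20240 and 18486 after SHP099 (-0.46 ± 0.18, adjusted p = 0.179). All cells of cluster 19 had it at 32956 to 35473 in vehicle mice and 20738 to 22922 after SHP099, where it fell by 0.66 ± 0.07 (adjusted p = 3.11e-05). There 6 of the 12 class II genes fell and 0 rose (median -0.47 against -0.06). Mgl2 also fell in cluster 19, by 1.06 ± 0.15 (adjusted p = 0.000248), with -0.69 ± 0.28 (0.192) in the Cd209a cells.

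Of the immediate early genes, which respond within minutes to growth-factor and stress signals, Ier3 fell by 2.27 ± 0.46 after SHP099 (adjusted p = 0.021), from 867, 418 and 1405 CPM to 126 and 231. It was the 1 called of 19 tested (median -0.62). In cluster 19, 5 of 20 fell, with Ier3 at -1.76 (adjusted p = 0.000248) and Egr1 at -0.996 ± 0.285 (0.0361). The chemokine gene Ccl6 fell by 1.64 ± 0.34 (0.023) in the Cd209a cells and by 1.93 in cluster 19 (0.000523).

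The lowest values after SHP099 belonged to genes of other cell types. Apoe, a lipoprotein gene of macrophages, was at 1267, 1361 and 887 CPM in vehicle mice and at 0 and 28.9 after SHP099. Krt18, an epithelial keratin, was at 438, 564 and 419 against 0 and 43.4. Over all 3 mice of each group, the summed macrophage list of 15 genes stood at 2696 to 3637 in the Cd209a cells of vehicle mice and 377 to 929 after SHP099, and the summed tumour and epithelial list of 10 genes at 890 to 2680 and 0 to 284. Stromal genes were at 8.72 to 248 and 0 to 15.8, and neutrophil genes at 362 to 1534 and 161 to 4670. The part of these in the results was not tested. C1qa gave -4.80 over all Cd209a cells and 0.17 (adjusted p = 0.913) in all cells of cluster 19. Of 21 cell cycle genes tested, 3 fell and 0 rose in the Cd209a cells (median -1.78 against -0.22 for all genes), with H2afz falling by 1.09 ± 0.19 (0.0102) and Stmn1 by 2.84 ± 0.68 (0.0425), while all cells of cluster 19 gave -0.24 (0.327) and -0.13 (0.819). Among the Cd209a cells of cluster 19 alone, 3 of 15 fell (median -1.73).

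**Figure D4:**
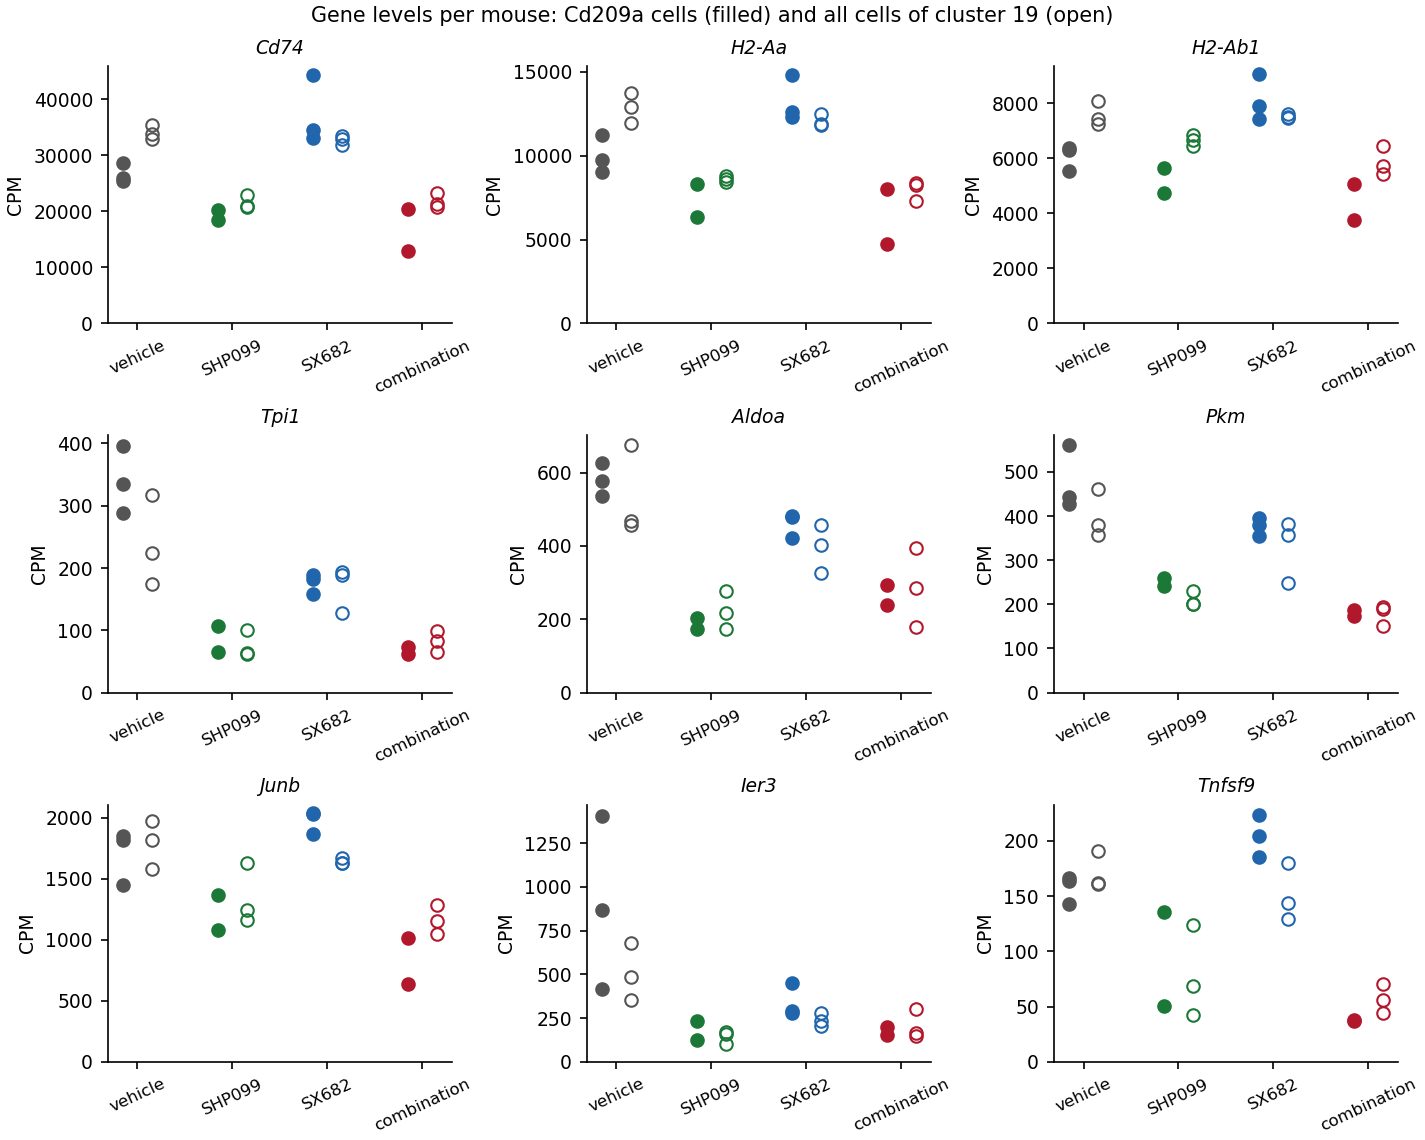
Levels per mouse in CPM of 3 MHC class II genes, 3 glycolytic genes, 2 immediate early genes and Tnfsf9, by treatment. Filled points are the Cd209a cells of the 10 mice with at least 10 of them and open points all cells of cluster 19 in 12 mice; Tpi1 is at 288 to 396 in the Cd209a cells of vehicle mice and 62.5 to 106 after SHP099 or the combination.

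After SX682 alone, nearly all genes that passed in the Cd209a cells were lower. Against vehicle, 60 of 4913 genes passed (1.22%), 4 higher and 56 lower. Those lower were led by tumour and epithelial genes: Krt8, at 501, 1322 and 365 CPM in vehicle mice and 4.92, 81.2 and 12.2 after SX682, fell by 4.35 ± 0.83 (adjusted p = 0.0165), and Tm4sf1, a surface protein gene of carcinoma cells, from 255, 370 and 158 to 4.92, 2.03 and 0. The summed tumour and epithelial list was at 890 to 2680 in vehicle mice and 110 to 385 after SX682. Without the deepest 5% of the cells and those in tumour clusters 21 and 23, 4 genes passed, 2 of them among the 60. Over the Cd209a cells of cluster 19 alone 0 passed by edgeR, with 176 at an unadjusted p below 0.05 and 8 of the 60 testable there. Leaving out vehicle mouse 2 left 14 genes, and SX682 mouse 1, 2 or 3 left 19, 34 or 6. Without SHP099 mouse 1 or 2 the count was 94 or 96, and without combination mouse 1 or 2 it was 93 or 91.

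Over all cells of cluster 19, 22 of 5570 genes passed for SX682 (0.395%), 2 higher and 20 lower. The summed pan-dendritic list was at 49938 to 53256 CPM in the Cd209a cells of vehicle mice and 63307 to 82344 after SX682, and the summed MHC class II list at 48834 to 54067 and 63448 to 75721. The groups did not overlap in either sum, although no single gene of the lists passed, with 0 of 12 called in each. The lists share Cd74, H2-Aa, H2-Eb1 and Ciita, so the sums are not independent. Over all Cd209a cells, Cd74 alone was at 27980.5 CPM of sums of 58629 and 57718. Such a gap was not particular to the pan-dendritic and class II lists. The summed MHC class I list was at 3554 to 3880 CPM in vehicle mice and 4751 to 6002 after SX682. The type I interferon response list was at 270 to 343 and 438 to 678. Other lists overlapped, such as the type 2 list at 8728 to 10711 and 10689 to 12252. The class II median was 0.43 in the Cd209a cells (0.05 for all genes), 0.06 over those of cluster 19 alone and -0.04 in all cells of cluster 19, where 0 of 12 passed as well. Ier3 fell in cluster 19 (-1.07 ± 0.21, adjusted p = 0.023), with -1.38 ± 0.34 in the Cd209a cells (0.0636). Tpi1 fell in the Cd209a cells by 0.96 ± 0.19 (0.0212), with -0.45 in cluster 19 (0.561). Bst2, an interferon-induced restriction factor, and Hsph1, a heat shock gene, rose by 0.98 ± 0.19 (0.0193) and 1.79 ± 0.32 (0.0118), with 0.32 (0.578) and 1.02 (0.182) in cluster 19. Scgb1a1, the secretoglobin of airway club cells, was at 0 to 4.50 CPM in vehicle mice and 44.3 to 48.7 after SX682, and rose in both cell sets (adjusted p = 0.00612 and 0.000464). Both sets come from the same SX682 pool and share cells. Expression in these cells and free RNA of that pool cannot be told apart here.

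After the combination, 38 of 4913 genes passed against vehicle (0.773%), 0 higher and 38 lower. With DESeq2's size factors 1 gene passed, Tpi1 (adjusted p = 0.0412), and in DESeq2's own test 15 genes were higher and 35 lower. Leaving out vehicle mouse 1, 2 or 3 left 22, 2 or 4 genes, SX682 mouse 1 or 2 left 17 or 2, and combination mouse 2 left 0 (632 at an unadjusted p below 0.05). Over all cells of cluster 19, 188 of 5570 passed (3.38%), 33 higher and 155 lower, and these include 23 of the 38. Glycolytic, hypoxia-responsive and immediate early genes and Tnfsf9 were among those that fell in both cell sets.

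Tpi1 was at 62.5 and 73.2 CPM after the combination, against 288 to 396 in vehicle mice, and fell by 2.31 ± 0.32 (adjusted p = 0.0148; cluster 19 -1.44, 0.00536). Pkm, which encodes pyruvate kinase, was at 444, 562 and 428 in vehicle mice and 188 and 174 after the combination, and fell by 1.41 ± 0.23 (0.0235; cluster 19 -1.12, 0.0035). Hilpda, a hypoxia-inducible lipid droplet gene, fell by 2.16 ± 0.38 (0.0313; cluster 19 -2.24, 0.00158). Of the 18 glycolysis and hypoxia genes, 6 fell and 0 rose (median -1.06 against -0.24 for all genes), and in all cells of cluster 19 9 fell (median -0.81 against -0.11). With the Cd209a cells of cluster 19 alone, 1 of 13 fell (median -0.77 against -0.43). The summed macrophage list was at 2696 to 3637 CPM in the Cd209a cells of vehicle mice and at 1177 and 1093 in the 2 tested combination mice, below every vehicle mouse, and the tumour and epithelial list at 890 to 2680 against 182 and 2330. The part of these in the results was not tested.

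Tnfsf9 was at 143, 164 and 167 CPM in vehicle mice and 37.5 and 36.6 after the combination, and fell by 2.07 ± 0.44 (adjusted p = 0.0431). In all cells of cluster 19 it was at 160 to 190 in vehicle mice and 43.9 to 70.5 after the combination (-1.58 ± 0.30, adjusted p = 0.00535). Of 19 immediate early genes, 3 fell and 0 rose (median -0.87 against -0.24). Junb, an AP-1 transcription factor gene, fell by 1.07 ± 0.20 (0.0316; cluster 19 -0.62, 0.00916) and Ier3 by 2.33 ± 0.49 (0.04; cluster 19 -1.24, 0.00916). Jun, another AP-1 gene, fell by 1.34 ± 0.27 (0.0376), with -0.63 in cluster 19 (0.0888). MHC class II had 0 of 12 called in the Cd209a cells (median -0.54), whereas 7 of 12 fell in all cells of cluster 19 (median -0.59) and 7 of 12 in its Cd209a cells alone (median -0.84 against -0.43 for all genes). Cd74 gave -0.67 ± 0.18 (0.101) and -0.65 ± 0.07 (8.48e-05) in the 2 cell sets.

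Against SX682 alone, MHC class II genes were lower in the Cd209a cells after the combination. In this contrast 108 of 4913 genes passed (2.2%), 13 higher and 95 lower. With the DESeq2 size factors 18 were higher and 12 lower, and DESeq2's own test gave 48 and 46. Leaving out SX682 mouse 1, 2 or 3 left 52, 18 or 1 genes, vehicle mouse 2 or 3 left 45 or 70, and combination mouse 2 left 0 (612 at an unadjusted p below 0.05), whereas leaving out combination mouse 1 gave 149. Across all cells of cluster 19, with 3 mice in each group, 145 of 5570 passed (2.6%), 51 higher and 94 lower, including 54 of the 108.

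Cd74 was at 33082, 34495 and 44362 CPM in the Cd209a cells after SX682 and at 20524 and 12962 after the combination. It fell by 1.16 ± 0.19 (adjusted p = 0.0178), and by 0.59 ± 0.07 in cluster 19 (0.0001), where the ranges were 31919 to 33532 and 20801 to 23250. H2-Aa, the alpha chain of I-A, was at 12336, 12621 and 14832 after SX682 and 8042 and 4760 after the combination, and fell by 1.05 ± 0.20 (0.0202; cluster 19 -0.59, 0.000224). H2-Ab1 was at 7412, 7897 and 9073 against 5078 and 3753 and fell by 0.88 ± 0.16 (0.0178; cluster 19 -0.36, 0.0219). H2-Eb1 and H2-DMa fell by 0.98 ± 0.22 (0.0338) and 0.86 ± 0.19 (0.0334), with -0.55 (0.000731) and -0.40 (0.0649) in cluster 19. Of 12 class II genes, 6 fell and 0 rose in each cell set, with medians of -0.93 against -0.27 for all genes in the Cd209a cells and -0.57 against -0.12 in cluster 19. Under DESeq2's size factors the Cd209a cells kept 1 call of the 12, Cd74 (-0.88, adjusted p = 0.0333), with a median of -0.66 against 0.01.

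Of 13 type 2 dendritic genes tested, 4 fell and 0 rose: H2-Ab1, Mgl2, Itgax and Tnfsf9 (median -0.88 against -0.27 for all genes). In the Cd209a cells of cluster 19 alone, 4 of 13 fell as well (median -0.72 against -0.45), and under DESeq2's size factors 1 did. Mgl2 was at 734, 965 and 1173 CPM after SX682 and 450 and 238 after the combination, and fell by 1.51 ± 0.31 (adjusted p = 0.0262; cluster 19 -0.79, 0.00782). Tnfsf9 fell by 2.46 ± 0.43 (0.0178; cluster 19 -1.38, 0.0137). Junb fell by 1.28 ± 0.20 (0.0178; cluster 19 -0.50, 0.036) and Zfp36, which encodes an mRNA-destabilising protein, by 1.23 ± 0.26 (0.0279; cluster 19 -0.65, 0.0142). Of 19 immediate early genes, 5 fell and 0 rose (median -1.08), and in cluster 19 5 of 20 fell (median -0.52). Cst3, the cystatin C gene that is abundant in dendritic cells, fell by 1.46 ± 0.26 (0.0178; cluster 19 -0.67, 0.0131). Clec4n, the lectin dectin-2, fell by 1.56 ± 0.27 (0.0178) in the Cd209a cells but gave 0.27 in cluster 19 (0.623).

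Among the 13 genes higher after the combination than after SX682, S100a6, a calcium-binding protein gene, was at 2649, 2789 and 3151 CPM after SX682 and 4590 and 5996 after the combination (0.89 ± 0.16, adjusted p = 0.0178; cluster 19 0.69, 0.000314). Sec61g, a subunit of the protein translocation channel, rose by 1.02 ± 0.19 (0.0178; cluster 19 0.90, 0.000314). The ribosomal protein genes Rpl38 and Rps28 rose by 0.69 ± 0.16 (0.0419) and 0.67 ± 0.15 (0.0334). In the Cd209a cells of all 3 mice per group the summed tumour and epithelial list was at 110 to 385 after SX682 and at 182, 2330 and 130 in combination mice 1, 2 and 3. The macrophage list was at 1523 to 4785 after SX682 and at 1177, 1093 and 7907 after the combination, so the 2 tested combination mice lay below every SX682 mouse and mouse 3, with 4 cells, above. The neutrophil list was at 443 to 1260 and at 841, 2981 and 6870. The median depth of the Cd209a cells was 5288.5 to 7276 UMIs after SX682 and 3076 to 6024 after the combination. The part of these in the results was not tested.

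**Figure D5:**
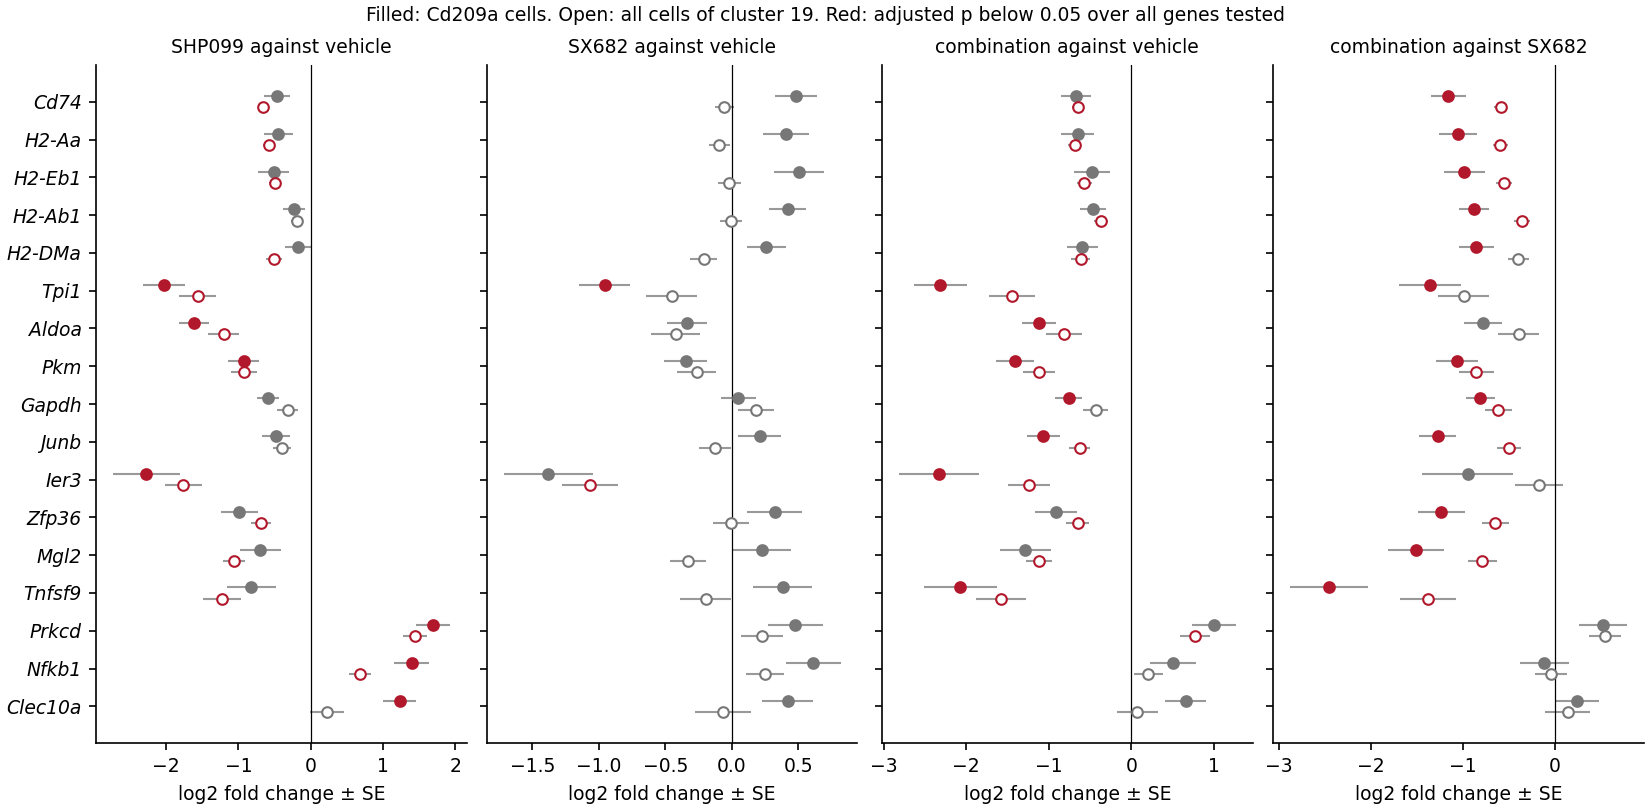
Log2 fold changes with their standard errors for 17 genes in 4 contrasts (panels), in the Cd209a cells (filled) and all cells of cluster 19 (open); red marks an adjusted p below 0.05 over all genes tested. Cd74 gives -1.16 and -0.59 for the combination against SX682 and does not pass for SX682 against vehicle in either cell set.

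Against SHP099 alone, the combination had 0 of 4913 genes called (0.0%) in the Cd209a cells by edgeR, with 434 at an unadjusted p below 0.05 and 1 called by DESeq2. Over cluster 19, 1 of 5570 passed (0.018%). With 2 mice in each of these groups, the test found 39% of simulated 4-fold changes and 8% of 2-fold changes. The test of a combination effect beyond the sum of both single drugs called 3 genes (0.0611%) in the Cd209a cells, Serpinb6a, Apob and Tm4sf4, and 3 in cluster 19 (0.0539%). MHC class II, glycolysis and immediate early genes had 0 called in either set in both contrasts.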

How the data were processed

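The authors' deposited matrix holds raw UMI counts per gene and cell (mm10, build and Cell Ranger per the submitters' processing notes), and their tables give each cell's cluster, treatment and mouse. The sources used here do not state versions, cell filters or cluster settings. Every deposited cell has at least 500 UMIs. The Epcam+ bulk libraries hold no sorted immune cells and were not used here. Members and lists were chosen with earlier results of these data known.

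UMI counts were summed per mouse over the Cd209a cells (25 to 86, 15 to 21, 50 to 71 and 17 to 20 cells for vehicle, SHP099, SX682 and combination mice, omitting 2 mice with 4 cells) and tested with edgeR 4.0.16 in R 4.3.3 (quasi-likelihood, TMM scaling, filterByExpr, two-sided, Benjamini-Hochberg adjusted p below 0.05 over all genes tested). The 4 treatments shared 1 fit. The 5 genes of the rule were not tested in the Cd209a cells. Cell numbers were tested with edgeR against all cells of the mouse, and shares by exact permutation (numpy 2.4.6, scipy 1.17.1). The comparison sets needed 2 or more UMIs of Xcr1 and Clec9a summed, 2 or more of both Ccr7 and Fscn1, or 2 or more of Ly6c2 with 1 of Csf1r. Each lacked Cd209a and the genes of the other lineages. Alternatives used DESeq2 1.42.0, limma 3.58.1, other scalings, filters, thresholds and cells. Simulated counts with 200 changed genes were used to test the scripts: of 4-fold changes, 65, 86, 54 and 44% were found for SHP099, SX682 and the combination against vehicle and the combination against SX682, and of 2-fold changes 15, 42, 4 and 9%.

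Levels are counts scaled to a common total (CPM), per mouse with TMM-scaled totals and per cell set and for summed lists over plain totals; for Cd209a in cluster 19 they come from that fit. Intervals cover counting error only. The rule for named genes took, in each contrast, the genes of largest fold change (at most 10 higher and 10 lower) that passed, had a mean log2 level of at least 5 and did not overlap between groups. To these it added up to 4 of every list, ranked by p, and the markers and drug targets. Itgam, Irf4, Clec4a4, Zbtb46 and other markers given as levels belong to the lists. Values of genes named in 1 contrast are also given in others, and these were picked after their values were seen.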

Additional observations from a re-analysis of the deposited data

Results flagged for a closer look

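In 3 genes the combination differed from the sum of both single drugs by the interaction test (edgeR, adjusted over 4913 genes). Serpinb6a gave 6.44 ± 0.89 on the log2 scale (adjusted p = 0.0151), with 122.9, 303 and 194 CPM in the Cd209a cells of vehicle mice, 0 and 28.9 after SHP099, 17.2, 24.4 and 18.2 after SX682, and 100 and 183 after the combination. Apob gave 11.67 (adjusted p = 0.0321) and Tm4sf4 12.87 (adjusted p = 0.0485); both were at 0 in the 2 SHP099 mice, so these sizes depend on the prior count, and Tm4sf4 was at 0 in 1 combination mouse and 165 in the other. The summed tumour and epithelial list was at 890 to 2680 in vehicle mice, 0 to 284 after SHP099 and 110 to 385 after SX682. After the combination it was at 182 and 2330 in tested mice 1 and 2, so mouse 1, with Serpinb6a at 100, lay within the SX682 range and mouse 2 within the vehicle range. The part of that list was not tested. None of the 3 genes was testable over cluster 19, and Serpinb6a gave an adjusted p of 0.237 without the deepest 5% of the cells and those in the tumour clusters.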

How the results depend on the processing

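The exact test of the share over 4 treatments kept p between 0.00162 and 0.0346 in every alternative but the share of the 3 dendritic sets (p = 0.524). Relative to those sets the log2 share changes no longer passed, at -0.34 for SHP099, -0.56 for the combination against vehicle and -0.72 against SX682. Thinned to 1000 UMIs, SHP099 gave -0.85 and the combination -1.73 against vehicle. At 3000 UMIs, a depth chosen after seeing the data, they gave -0.43 and -1.38. Leaving out 1 mouse moved SHP099 against vehicle between -2.19 and -1.34, and the combination against SHP099 between -0.79 and 0.0676.

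Counts of genes that passed follow for SHP099, SX682 and the combination against vehicle, the combination against SHP099, the combination against SX682 and the interaction. Leaving out 1 mouse gave 12 to 169, 6 to 96, 0 to 52, 0 to 3, 0 to 149 and 0 to 64. With no filter on low counts they were 345, 320, 156, 58, 281 and 178, and the 3 comparisons between cell sets then gave 2007, 2875 and 1743. With equal cell numbers per mouse (15 cells, 1805 genes tested) they were 12, 0, 1, 1, 0 and 0. Keeping all 12 mice gave 191 for SHP099, 29 for SX682, 206 for the combination against SX682 and 15 for the interaction. With 3 or more Cd209a UMIs the first 3 were 21, 2 and 90 and the interaction 0. With 1 or more, the combination gave 61, 3 and 246 against vehicle, SHP099 and SX682, and the interaction 23. Cd209a cells of cluster 19 alone gave 0 for SX682, 114 for the combination against vehicle and 0 for the interaction. All cells of cluster 19 gave 436, 22 and 188 against vehicle, and 1 for the combination against SHP099. Without the deepest cells and tumour clusters SX682 gave 4, the combination 93 against vehicle and 60 against SX682, and the interaction 1. DESeq2 gave 1 for the combination against SHP099 and 33 for the interaction, and its size factors 1 and 30 for the combination against vehicle and SX682. Fitting only 2 treatments gave 2, 1 and 15 for the combination against vehicle, SHP099 and SX682. Leaving out genes that free RNA could supply gave an interaction count of 20. The cause of these changes was not tested.

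Hashtag numbers paired the mice only by number: 4 of 13 same-numbered pairs correlated above 0.1 (0.0106 to 0.178), although 8 of 10 mice correlated best with their own number, which is a hint from the data and not the design. Correlations with the 2 tested mice of SHP099 or the combination mirrored each other. For vehicle mouse 1 they were 0.0168 and -0.0168 with SHP099 mice 1 and 2, so these 10 mice are not independent counts. With the number as a replicate block the counts were 231, 146, 59, 7, 140 and 85, and the share changes -1.73 for SHP099 and -2.16 for the combination against vehicle kept their calls.

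Of 398 named genes and contrasts, 261 kept their call in every alternative. In all cells of cluster 19 the sign turned for Ly6c2 (-0.84) and C1qa (0.17) after SHP099, Fscn1 (0.26) after SX682 and Clec4n (0.27) for the combination against SX682. In the Cd209a cells of cluster 19 it turned for Apoe (0.69 against vehicle and 0.82 against SX682 for the combination), and for C1qb (-1.57) and H2-Ab1 (0.0491) against Xcr1 or Clec9a cells. Depth limits the SHP099 and combination groups most, with 15 to 21 cells per mouse tested and biological variation between mice of 18.9%, against 12.3% in cluster 19.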
